A study of Mus musculus with 4 samples.

Results

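The 6 genes described here are *Slc12a1*, *Umod*, *Kcnj1*, *Bsnd*, *Enox1* and *Thsd4*. They were chosen by name for the thick ascending limb of the loop of Henle, with earlier results of these data known. All 6 were found among 19632 gene rows of a table of mean expression in 23 clusters of mouse kidney cortex nuclei. Single nucleus RNA sequencing (snRNA-seq) was performed on 4 male mice of mixed strain, 1 mouse per condition. Control mice carried TRE-hKLF6 alone, a human *KLF6* transgene without its activator, and hKLF6 OE mice carried CAG-rtTA,TRE-hKLF6, in which the broadly active CAG promoter drives the doxycycline-dependent activator in all cell types. All 4 mice were fed doxycycline, and their ages are not given in the sources used here. One mouse of each genotype had no treatment in the labels, and the other had a single injection of aristolochic acid I (AAI), a plant toxin that damages DNA, the day before collection.

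The thick ascending limb reabsorbs salt without water and so dilutes the urine. Sodium, potassium and chloride enter the cell together through NKCC2, the apical cotransporter encoded by *Slc12a1*, which loop diuretics block. Potassium returns to the lumen through ROMK (*Kcnj1*), and chloride leaves through basolateral ClC-K channels, which need the subunit barttin (*Bsnd*). Loss of any of these proteins causes Bartter syndrome in humans. *Umod* encodes uromodulin, a secreted protein that this segment releases into the urine. *Enox1* encodes an ecto-NOX disulfide-thiol exchanger and *Thsd4* an extracellular matrix protein associated with microfibrils, so only the first 3 of these products, NKCC2, ROMK and barttin, are known for salt transport.

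A level below is the mean, over the nuclei of 1 cluster in 1 mouse, of counts scaled to 10000 per nucleus, so a level of 1 is 1 count in 10000. A mean over nuclei cannot tell more nuclei with a transcript from more transcript per nucleus. Numbers of nuclei and counts are not in the table, so depth is unknown for each value and no counting interval could be given. With 1 mouse per condition there was no test between conditions, and every difference describes these mice. Levels were compared between clusters and mice for 1 gene at a time, not between genes, since long transcripts give more intronic reads. The clusters were made from the same expression values, and were named in part with *Slc12a1*, *Enox1* and *Thsd4*, so differences between clusters are descriptions. The share of gene rows at 0 was 25.9% to 36.9% in the clusters LH-AL-1 and LH-AL-2 and 60.5% to 63.4% in LH-AL-3, so the columns of LH-AL-3 hold fewer detected genes.

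The names were first checked on 8 ascending limb markers that are not among the 6 genes. Their summed level was 80.0 to 140 in LH-AL-1, 120 to 180 in LH-AL-2 and 16.98 to 60.3 in LH-AL-3. Most of each mean sum was 1 gene, *Egf*, with means of 93.8, 131.7 and 20.2 beside sums of 116.6, 149.8 and 34.3. The sums therefore mainly follow *Egf*, while *Irx1* and *Pou3f3* were highest in LH-AL-3. The mean of LH-AL-3, 34.3, was below that of 54.5 in the distal convoluted tubule. Of the 8 markers, 7 were at their highest in 1 of the 3 ascending limb clusters. The exception was *Cldn10*, which encodes claudin-10, with isoforms known from both segments, and was highest in a proximal tubule cluster. LH-AL-3 differed in kind. Of 5 markers of the macula densa, the salt-sensing plaque at the end of the limb, 4 were at their highest there. *Nos1*, the neuronal nitric oxide synthase, had a mean level of 10.9 in LH-AL-3 against 0.0450 in the next cluster. *Pappa2*, a protease of insulin-like growth factor binding proteins, had 10.5 against 0.0303. *Robo2* set the cluster apart less, with 44.8 against 40.9 in podocytes. *Ptgs2* had 2.13 against 0.173, but was not detected in LH-AL-3 of the hKLF6 OE mouse without AAI. The fifth marker, *Avpr1a*, was highest in an intercalated cell cluster, at 0.284. LH-AL-3 kept its name here, and its values are given apart from those of LH-AL-1 and LH-AL-2.

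*Slc12a1* (ENSMUSG00000027202, chr2:125152505-125230002 of GRCm38, plus strand) set the ascending limb apart from every other cluster. Its level in LH-AL-1 was 217 in the control mouse, 210 in control with AAI, 201 in hKLF6 OE and 195 in hKLF6 OE with AAI. LH-AL-2 followed with 155, 166, 157 and 147 in the same order of mice, and LH-AL-3 with 130, 123, 127 and 121. The ranges over the 4 mice did not overlap between these 3 clusters. The next cluster was EC-1, labelled endothelial, with 27.7 to 38.1, which overlapped neither LH-AL-3 above it nor the cluster below it. No further pair of neighbours in the order of 23 clusters was separated, so 18 of 22 neighbouring pairs overlapped. The mean of LH-AL-1 and LH-AL-2 was 75.8 times the median of 13 clusters outside the distal nephron, and 66.9 to 88.4 times in single mice.

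*Umod* (ENSMUSG00000030963, chr7:119462711-119479282, minus strand) was highest in the same pair of clusters, but stood less far above the rest. In LH-AL-2 its level was 36.6 in control, 38.6 in control with AAI, 36.3 in hKLF6 OE and 38.5 in hKLF6 OE with AAI. In LH-AL-1 it was 41.5, 37.3, 30.4 and 38.8. The order of these clusters was split, with 2 of 4 mice higher in each, and the lowest of the 8 values was that of the hKLF6 OE mouse without AAI. In LH-AL-3 the levels were lower, at 9.33, 7.07, 15.6 and 3.36. The mean of LH-AL-1 and LH-AL-2 was 6.04 times the median outside the distal nephron (4.66 to 7.11 times in single mice), and of 22 neighbouring pairs only LH-AL-1 and InjuredPT-A, at 7.60 to 21.1, did not overlap. No column of the 92 was at 0 for *Umod* or *Slc12a1*.

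The sequences before the annotated starts of these genes are shown for the region from which their transcripts begin. They are RefSeq sequence of GRCm38.p6, on the strand of the gene, ending 1 base before the gene's first annotated base.
*Slc12a1*, chr2:125152350-125152504: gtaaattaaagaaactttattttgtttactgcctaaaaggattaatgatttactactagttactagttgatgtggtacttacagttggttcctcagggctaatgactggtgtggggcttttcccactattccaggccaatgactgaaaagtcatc
*Umod*, chr7:119479283-119479512: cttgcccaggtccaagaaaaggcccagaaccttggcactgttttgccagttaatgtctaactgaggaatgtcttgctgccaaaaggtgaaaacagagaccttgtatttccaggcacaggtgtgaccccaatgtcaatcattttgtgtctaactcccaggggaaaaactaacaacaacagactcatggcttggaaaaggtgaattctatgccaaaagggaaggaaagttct
In windows of 250 bases before RefSeq starts, which were held for 5 of the 6 genes in 6 windows, the estrogen-related receptor motif AAGGTCA was searched on both strands. It was in none of the 6 windows and in 4.08% of all 32851 such windows. The motif was picked with the sequences in view, and the absence of these letters says nothing of the receptor. No part of the sequences is in capitals, since nothing in them is marked.

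*Kcnj1* (ENSMUSG00000041248, chr9:32372493-32399197, plus strand) extended along the distal nephron. LH-AL-1 held 5.13 in control, 5.10 in control with AAI, 5.23 in hKLF6 OE and 5.12 in hKLF6 OE with AAI, the narrowest spread of the 6 genes there relative to the mean. LH-AL-2 held 4.26, 4.08, 4.81 and 4.26, below LH-AL-1 in 4 of 4 mice and without overlap. The distal convoluted tubule (DCT) held 4.56, 4.34, 4.49 and 3.75, a range that overlapped that of LH-AL-2. The connecting tubule (CNT) followed at 3.56 to 3.77 and collecting duct principal cells at 1.20 to 2.43, where ROMK is also known to secrete potassium. LH-AL-3 varied most, with 5.21 in control and 1.57 in hKLF6 OE with AAI. The 5 normal proximal tubule clusters had means from 0.182 to 0.382. The mean of LH-AL-1 and LH-AL-2 was 12.4 times the median outside the distal nephron, and 9.55 to 17.8 times in single mice.

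*Bsnd* (ENSMUSG00000025418, chr4:106483456-106492283, minus strand) was not highest in the ascending limb. Its highest means were in intercalated cells, which also use barttin with a ClC-K channel: 1.12 in IC-B-1 and 1.02 in IC-A. LH-AL-2 came next, with 1.18 in control, 0.634 in control with AAI, 0.487 in hKLF6 OE and 0.548 in hKLF6 OE with AAI. LH-AL-1 held 0.580, 0.499, 0.648 and 0.539. All 22 neighbouring pairs of clusters overlapped. Over longer steps, every mouse was higher in IC-B-1 (0.681 to 1.44) and IC-A (0.669 to 1.55) than any was in LH-AL-1, and LH-AL-1 and LH-AL-2 lay above every column outside the distal nephron, the highest of which was 0.391 in InjuredPT-A. The mean of LH-AL-1 and LH-AL-2 was 15.1 times the median outside the distal nephron, and 6.33 to 36.1 times in single mice. Principal cells lay near 0, at a mean of 0.00620, beside 0.597 in the connecting tubule. *Bsnd* was at 0 in 14 of 92 columns.

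*Enox1* (ENSMUSG00000022012, chr14:77156763-77721760, plus strand) had its 3 highest means in the 3 ascending limb clusters. LH-AL-3 held 18.1 in control, 25.7 in control with AAI, 12.96 in hKLF6 OE and 16.6 in hKLF6 OE with AAI. LH-AL-2 held 22.4, 19.3, 8.87 and 16.8, and LH-AL-1 held 6.49, 4.89, 1.23 and 6.53. LH-AL-1 was below LH-AL-2 in 4 of 4 mice, by 1.24 to 2.14 on the log2 scale with 1 added to each level, and the ranges did not overlap. The hKLF6 OE mouse without AAI was the lowest of the 4 in each of the 3 clusters. Outside them the highest mean was 1.46, in EC-1, and the next was 0.382, in podocytes. The mean of LH-AL-1 and LH-AL-2 was 182 times the median outside the distal nephron, a median of only 0.0595, and 93.7 to 280.6 times in single mice.

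*Thsd4* (ENSMUSG00000032289, chr9:59966931-60522046, minus strand) separated LH-AL-3 from the other clusters. Its level there was 31.7 in control, 26.4 in control with AAI, 24.9 in hKLF6 OE and 32.8 in hKLF6 OE with AAI, and no other cluster overlapped this range. LH-AL-1 held 6.10, 4.298, 1.87 and 6.08. LH-AL-2 held 0.669, 0.458, 0.719 and 0.556, below LH-AL-1 in 4 of 4 mice, by 0.74 to 2.19 on the log2 scale. LH-AL-2 was only at rank 9 of 23 by its mean of 0.601, after mesangial cells (2.24), the endothelial cluster EC-2 (2.00), principal cells (1.03), EC-1 (0.901), macrophages (0.757) and LH-DL (0.670). The mean of LH-AL-1 and LH-AL-2 was 16.5 times the median outside the distal nephron, and 12.9 to 60.5 times in single mice. *Thsd4* therefore went with *Enox1* in LH-AL-3 and against it between LH-AL-1 and LH-AL-2.

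**Figure D1:**
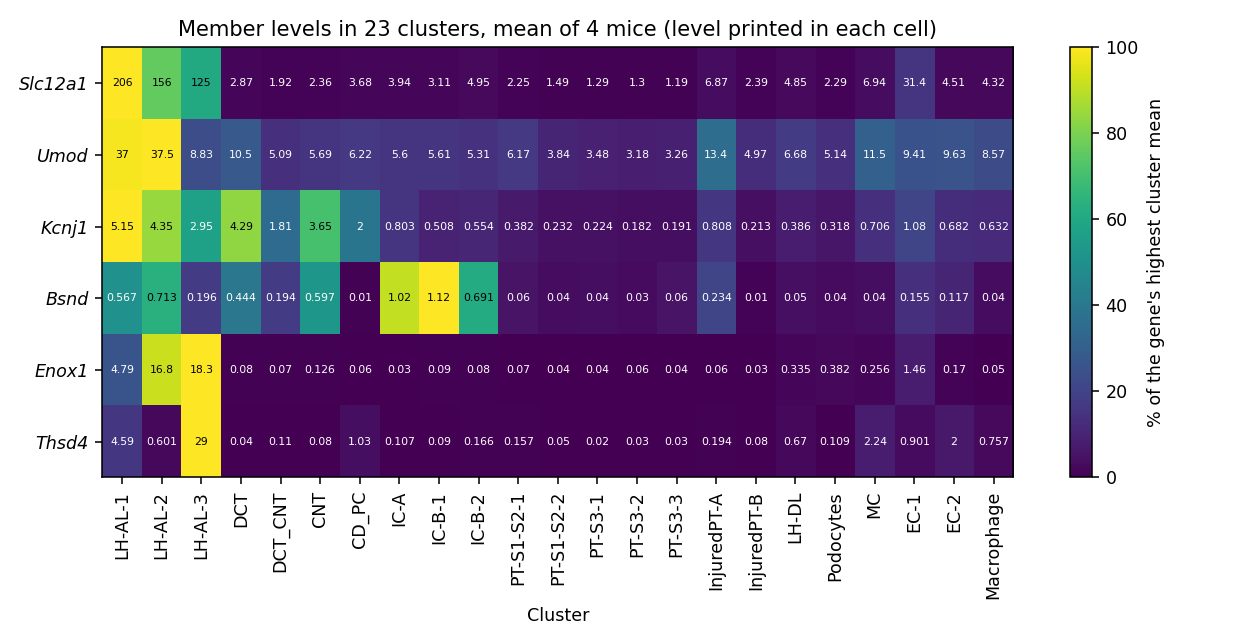
Mean level over 4 mice (counts per 10000 per nucleus, printed in each cell) of the 6 genes in 23 clusters, shaded as a percentage of each gene's highest cluster. *Slc12a1* reaches 206 in LH-AL-1 and 31.4 in EC-1, *Kcnj1* stays at 4.29 in DCT, *Bsnd* is highest in IC-B-1 at 1.12, and *Thsd4* is highest in LH-AL-3 at 29.0.

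**Figure D2:**
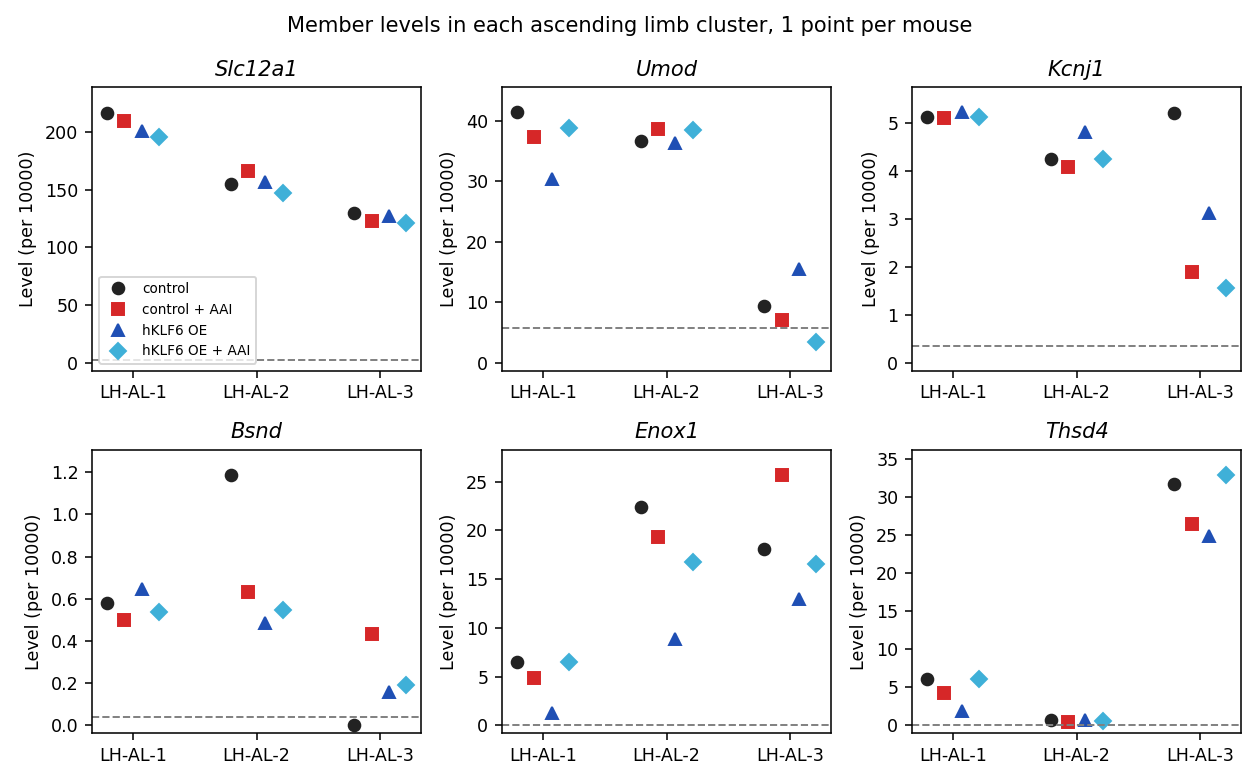
Level per 10000 of each gene in LH-AL-1, LH-AL-2 and LH-AL-3, with 1 point per mouse and no error bars. The dashed line is the median of all values in the 13 clusters outside the distal nephron. The hKLF6 OE mouse without AAI is lowest for *Enox1* in each cluster (1.23 in LH-AL-1), while its *Slc12a1* lies among those of the other mice in all 3 clusters and its *Kcnj1* is the highest in LH-AL-1 (5.23) and LH-AL-2 (4.81).

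LH-AL-1 and LH-AL-2 also differed in other genes of the pathway, taken from a list of 37 genes of ascending limb transport and its control, of which 36 were found and *Oxsr1* was not analysed here. Differences named here had the same direction in 4 of 4 mice. LH-AL-1, with more *Slc12a1*, *Kcnj1* and *Thsd4*, held more *Cldn10* (mean 2.80 against 0.841). It also held more *Ptger3*, a prostaglandin E2 receptor, at 14.2 against 3.59. *Stk39*, which encodes the kinase SPAK that phosphorylates NKCC2, was at 9.69 against 6.04.

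LH-AL-2, with more *Enox1*, held more *Cldn16*, a claudin needed for magnesium reabsorption, at 1.78 against 0.335. *Casr*, the calcium-sensing receptor, was at 10.3 against 3.44. *Kcnj10*, a basolateral potassium channel, was at 1.54 against 0.320, and *Wnk1*, a kinase upstream of SPAK, at 17.8 against 5.22. *Umod* and *Bsnd* did not share a direction in all 4 mice between these clusters.

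**Figure D3:**
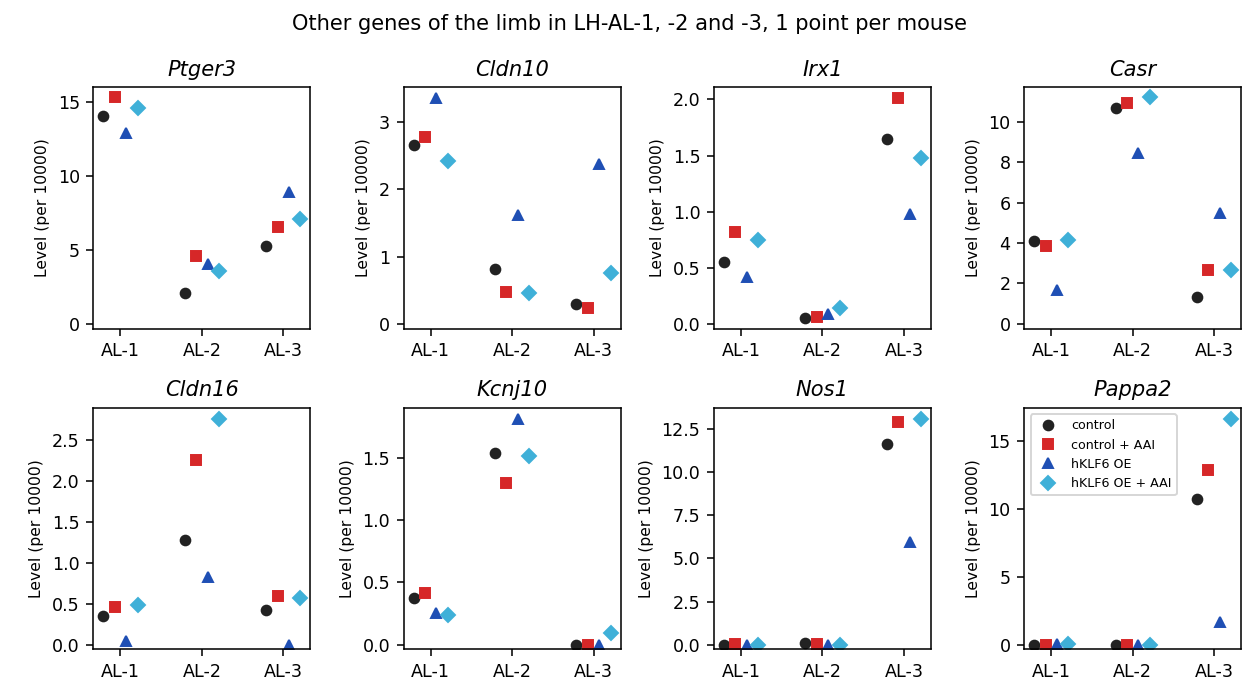
Level per 10000 of 8 other genes in LH-AL-1, LH-AL-2 and LH-AL-3 (AL-1 to AL-3 on the axis), with 1 point per mouse. *Ptger3* and *Cldn10* are higher in LH-AL-1 than in LH-AL-2, *Casr*, *Cldn16* and *Kcnj10* are higher in LH-AL-2, and *Nos1* and *Pappa2* are near 0 outside LH-AL-3.

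The comparisons by AAI and by genotype asked whether these genes differed with injury or with hKLF6 overexpression. Differences were taken as log2 of the level plus 1, a scale that understates changes of low genes, and counted as higher or lower from 0.2. In LH-AL-1 and LH-AL-2 together there were 12 values, 6 genes in 2 clusters, and all 12 passed the filter of a level of at least 0.5 in 1 of the mice. *Slc12a1* and *Kcnj1* stayed within 0.2 in all 4 comparisons and both clusters. The share of all genes that did so throughout is not given here. The values that went past 0.2 were those of *Enox1*, *Thsd4*, *Umod* and *Bsnd*. The comparisons share mice, so they are not independent of each other.

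In control mice, AAI against none gave 0 values higher and 4 lower. Of all genes, 35% passed 0.2 in LH-AL-1 (18.4% higher and 16.6% lower) and 44% in LH-AL-2 (22.2% higher and 21.9% lower), so 4 of 12 was near the background. *Enox1* was lower by 0.35 in LH-AL-1 and by 0.20 in LH-AL-2, *Thsd4* was lower by 0.42 in LH-AL-1, and *Bsnd* was lower by 0.42 in LH-AL-2. The pathway list had 31 genes past the filter in each cluster, and in each 6 were higher and 7 lower. In LH-AL-1 its median was -0.01, against 0.01 over all genes, with *Kcnj16*, a partner of *Kcnj10*, at 0.33 and *Pth1r*, the parathyroid hormone receptor, at -0.46. In LH-AL-2 the list ran from *Wnk1* at -0.82 to *Ptger3* at 0.84.

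In hKLF6 OE mice, AAI against none gave 4 values higher and 0 lower, beside 42.9% of all genes past 0.2 in LH-AL-1 (23.5% higher and 19.4% lower) and 50.1% in LH-AL-2 (26.3% higher and 23.8% lower). *Enox1* was higher by 1.75 in LH-AL-1 and by 0.85 in LH-AL-2. *Thsd4* was higher by 1.30 and *Umod* by 0.34 in LH-AL-1. Of 31 pathway genes, 11 were higher and 8 lower in LH-AL-1, from *Fxyd2*, a regulator of the sodium pump, at -0.52 to *Casr* at 0.95. In LH-AL-2, 10 were higher and 4 lower, from *Cldn10* at -0.84 to *Cldn16* at 1.04.

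Without AAI, hKLF6 OE against control gave 0 values higher and 5 lower, beside 34.4% of all genes past 0.2 in LH-AL-1 (13.6% higher and 20.8% lower) and 43.8% in LH-AL-2 (18.9% higher and 24.9% lower). *Enox1* was lower by 1.75 in LH-AL-1, the largest fall among 4370 genes there, and by 1.24 in LH-AL-2. *Thsd4* was lower by 1.30 and *Umod* by 0.44 in LH-AL-1, and *Bsnd* by 0.55 in LH-AL-2. Of 29 pathway genes in LH-AL-1, 3 were higher and 6 lower, from *Casr* at -0.95 to *Cab39l*, an adaptor of SPAK, at 0.40. Of 31 in LH-AL-2, 4 were higher and 8 lower, from *Wnk1* at -1.43 to *Ptger3* at 0.69.

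With AAI in both genotypes, hKLF6 OE against control gave 2 values higher and 0 lower, beside 26% of all genes past 0.2 in LH-AL-1 (10.6% higher and 15.3% lower) and 34.6% in LH-AL-2 (16% higher and 18.6% lower). These were *Enox1* at 0.36 and *Thsd4* at 0.42, both in LH-AL-1. The pathway list was also quieter, with 3 of 31 genes higher and 2 lower in LH-AL-1 and 3 of 30 higher and 2 lower in LH-AL-2. Its lowest value in LH-AL-1 was that of *Hpn*, the protease that releases uromodulin, at -0.39. In LH-AL-2 its extremes were *Ptger3* at -0.28 and *Slc12a7*, a potassium-chloride cotransporter, at 0.22.

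**Figure D4:**
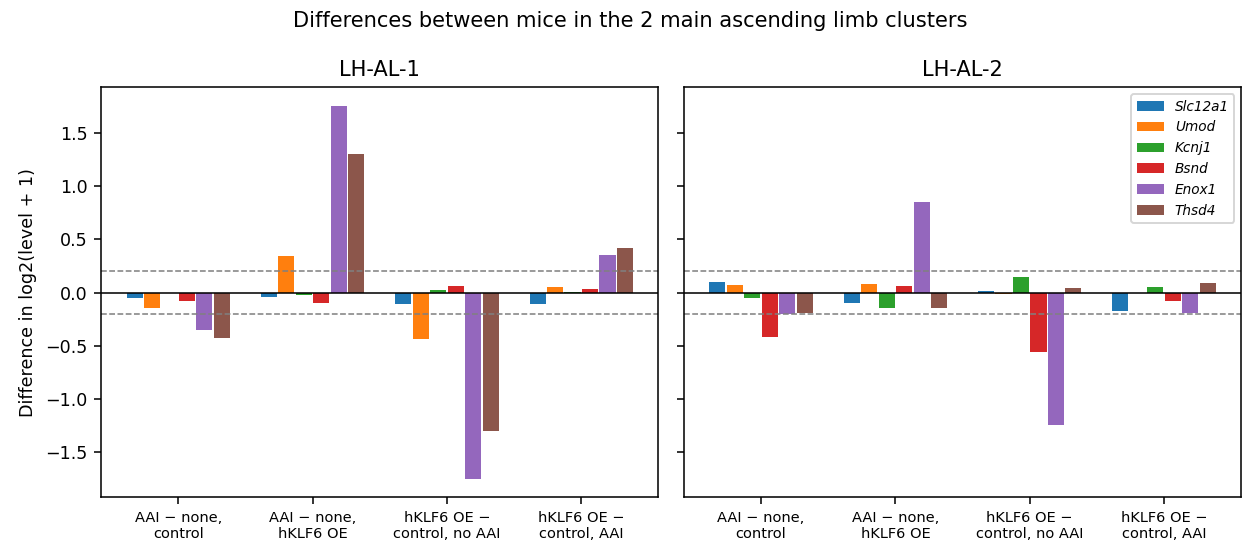
Difference in log2(level + 1) between single mice for the 6 genes in LH-AL-1 and LH-AL-2, in 4 comparisons. Bars have no error since each condition is 1 mouse, and dashed lines mark 0.2 and -0.2. *Enox1* in LH-AL-1 is at -1.75 for hKLF6 OE against control without AAI and at 1.75 for AAI against none in hKLF6 OE, which share the hKLF6 OE mouse.

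The hKLF6 OE mouse without AAI, used in both of the comparisons with the larger differences, stood apart from the other 3 mice in LH-AL-1 and LH-AL-2. It was below all 3 for 34.6% of 4747 genes in LH-AL-1, where each of the other mice was below its 3 fellows for 17.5% to 26.0%. In LH-AL-2 this share was 32.5%, against 21.3% to 24.4%, and in LH-AL-3 it was 20.9%, against 17.2% to 19.5%. Among 31 pathway genes in LH-AL-1 it was below all 3 for 14, among them *Casr* (1.66 against 3.86 to 4.15) and *Egf* (60.4 against 92.6 to 117). It was above all 3 for 10, beside 21.2% of all genes. *Enox1* and *Thsd4* span 565 and 555 kb, and the median difference of this mouse from control varied slightly with gene length. In LH-AL-1, genes over 100 kb had a median of -0.09, with 30.5% lower and 8.42% higher, while *Enox1* was at -1.75. Genes under 30 kb had a median of 0.04, with 14.6% lower and 24.7% higher. Proximal tubule markers summed to 106 in control, 67.7 in control with AAI, 124 in hKLF6 OE and 59.2 in hKLF6 OE with AAI in LH-AL-1, most of it *Kap*, an abundant proximal tubule transcript. The part of these shifts in the values of *Enox1* and *Thsd4* was not tested.

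In LH-AL-3, the share of all genes past 0.2 was 83.1% for AAI in control, 83.3% for AAI in hKLF6 OE, 83.5% for genotype without AAI and 81.2% for genotype with AAI, so a single difference past it is no result about these genes. *Slc12a1* nevertheless stayed within 0.2 in all 4. *Umod* ranged from -1.92 for AAI against none in hKLF6 OE to 0.68 for hKLF6 OE against control without AAI. *Egf*, an epidermal growth factor made in this part of the nephron, was at 27.7, 8.71, 42.3 and 2.21 in LH-AL-3, the same order of mice as *Umod*.

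Outside the limb, *Umod* and *Slc12a1* were found at low levels in every cluster, including those not known to make them. Whether these reads come from the nuclei of those clusters was not tested, and no expression is read from them. The proportion of the pair differed by place. The level of *Umod* divided by that of *Slc12a1* in the same column was 0.152 to 0.262 in LH-AL-1 and LH-AL-2 and 0.0278 to 0.123 in LH-AL-3. In 19 clusters outside the limb it was 0.723 to 5.10, with a median of 2.33, and in the 5 normal proximal tubule clusters it was 1.98 to 3.27. In DCT it was 4.17 in control, 4.02 in control with AAI, 3.91 in hKLF6 OE and 2.69 in hKLF6 OE with AAI. The last lay within the range of the normal proximal tubule clusters. Single columns elsewhere were higher, with 5.10 in IC-B-2 of control with AAI and 4.58 in DCT_CNT of hKLF6 OE.

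EC-1 did not follow the other clusters outside the limb. Its ratio was 0.236 to 0.370, near that of the limb, and it held *Egf* at 18.04. EC-1 held *Flt1*, an endothelial receptor, at 3.80 against 22.7 in EC-2, and *Slc5a12*, a proximal tubule lactate transporter, at 17.3. The values of this cluster therefore go against a purely endothelial label. Without EC-1 the folds of the limb over clusters outside it kept within their spread over mice.

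In the injured proximal tubule cluster InjuredPT-A, *Umod* was at 15.4 in control, 7.60 in control with AAI, 21.1 in hKLF6 OE and 9.39 in hKLF6 OE with AAI. These were 4.67, 1.77, 4.49 and 2.57 times its normal mean, taken over PT-S1-S2-1, PT-S1-S2-2, PT-S3-1, PT-S3-2 and PT-S3-3 in that mouse. *Slc12a1* was 5.85, 1.90, 7.36 and 2.82 times its normal mean, *Egf* 5.28, 1.91, 6.04 and 2.64 times, and *Kap* 3.98, 2.31, 3.87 and 2.85 times. All 4 genes thus had their larger ratios in the mice without AAI. In those mice the InjuredPT-A columns had 62.6% and 40.8% of gene rows at 0, against 22.5% and 22.2% in the mice with AAI. The study reported both injured clusters almost only in mice given AAI. The columns without AAI may therefore rest on few nuclei, and their ratios are not read as levels of injured tubule. In InjuredPT-B, *Umod* was 1.94, 1.13, 1.006 and 1.06 times its normal mean. The InjuredPT-B columns without AAI had 51.3% and 55.7% of gene rows at 0, against 27.0% and 29.7% with AAI. The same limit therefore holds for their ratios.

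**Figure D5:**
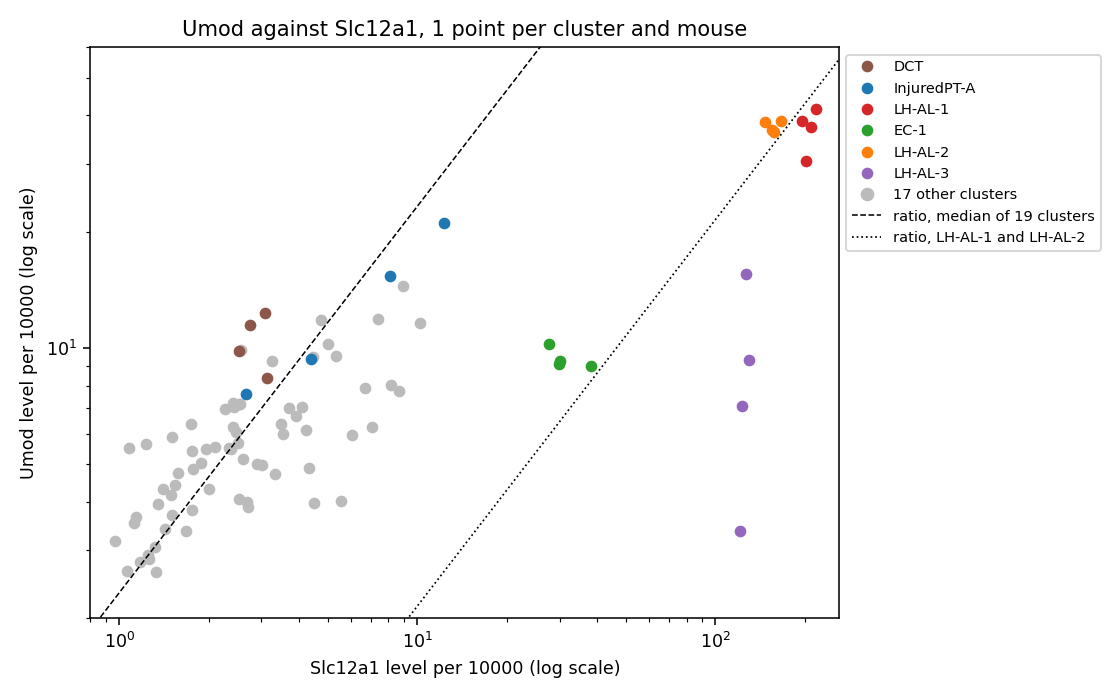
*Umod* against *Slc12a1* level per 10000, both on log axes, with 1 point per cluster and mouse (92 points). The lines mark the median ratio of 2.33 in 19 clusters outside the limb and 0.215 in LH-AL-1 and LH-AL-2. EC-1 lies near the lower line and LH-AL-3 below it. InjuredPT-A of the mice without AAI holds the highest *Umod* outside the limb, at 15.4 and 21.1. The study reported that cluster almost only with AAI, so these points may rest on few nuclei.

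The genes most like each of the 6 were those with the highest Pearson r of log2(level + 1) over 23 cluster means, among 2688 genes that reach a mean of 2 in some cluster. The clusters share libraries, so r is a description. *Slc12a1* was closest to *Tenm4* (r = 0.920), *Enox1* (0.918) and *Ephb2* (0.914). *Umod* was closest to *Slc2a13* (0.889), *Ppp1r1a* (0.883) and *Fxyd2* (0.880). *Kcnj1* was closest to *Tfap2b* (0.963), a transcription factor of the distal nephron, then *Top3b* (0.916) and *Lnx1* (0.914). *Bsnd* was closest to *Rap1gap* (0.905), *Rtl4* (0.892) and *Mindy1* (0.889). *Enox1* was closest to *Slc12a1*, *Cntn5* (0.888) and *Col5a2* (0.886), and *Thsd4* to *Sntb1* (0.861), *Map3k3* (0.852) and *Pla2g4a* (0.848). Within the 6 genes, *Slc12a1* had r = 0.836 with *Umod*, 0.657 with *Kcnj1*, 0.720 with *Thsd4* and 0.305 with *Bsnd*.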

How the data were processed

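Kidney cortex nuclei were profiled with 10x snRNA-seq, 1 mouse for each of 4 conditions. The deposited signal values are the authors' own: counts scaled to 10000 per nucleus, averaged over the nuclei of 1 cluster in 1 mouse, with each of 92 columns summing to 10000. This unit was read from the values. The submitters' processing notes name Cell Ranger, Seurat and mm10. Reads were counted on a pre-mRNA reference, which keeps intronic reads. How doublets were treated is not given in the sources used here for these nuclei. The table holds neither depth nor numbers of nuclei, and the precision of a value is therefore unknown.

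Clusters are numbered in the table. Names follow the sheet order of the study's marker table, of which only part was held. LH-AL-2 and LH-AL-3 had no sheet there, so they were named by order and checked on marker genes only. Of 19632 rows, 23 with date-like names were left out. Differences used a pseudocount of 1, a minimum level of 0.5 in 1 of the mice and a threshold of 0.2, with no test. The members and gene lists were chosen with earlier results of these data known. Genes named are the 6 members, the 3 genes most like each, the extremes of the pathway list in each comparison (1 of them is not reported here), and those described by cluster. Settings varied were the pseudocount (0.1), the filter (none, or a minimum of 2), the threshold (0.5), centring on the median, rescaling without 13 mitochondrially encoded genes or without *Umod* and *Slc12a1*, single clusters and mice left out. Leaving out EC-1 was added after seeing the data. The calls were run on a simulated copy of a single column, with little noise and planted changes well past the threshold. That checks the code only, since the spread between mice is unknown. Gene positions are from GENCODE M21, and Python 3.11.15, numpy 2.4.6, pandas 2.3.3 and matplotlib 3.10.9 were used.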

Additional observations from a re-analysis of the deposited data

Results flagged for a closer look

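AAI against none pointed one way in the control mice and the other way in the hKLF6 OE mice for *Enox1* and *Thsd4*. For *Enox1* in LH-AL-1 the log2 difference was -0.35 in control and 1.75 in hKLF6 OE. For *Enox1* in LH-AL-2 it was -0.20 in control and 0.85 in hKLF6 OE. For *Thsd4* in LH-AL-1 it was -0.42 in control and 1.30 in hKLF6 OE. The difference between genotypes was not tested, since each value is 1 mouse against 1 mouse. The hKLF6 OE mouse without AAI was the lowest of the 4 for each of these 3 values.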

How the results depend on the processing

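No paired analysis was possible because each condition has 1 mouse and no result comes from a test. Counts of all genes past the threshold, summed over LH-AL-1 and LH-AL-2, depended most on the settings. In the order AAI against none in control, the same in hKLF6 OE, hKLF6 OE against control without AAI and with AAI, they were 3491, 4061, 3455 and 2554. With a minimum level of 2 they were 934, 1183, 899 and 608, and with a threshold of 0.5 they were 397, 749, 386 and 154. With a pseudocount of 0.1 they were 5707, 6080, 5686 and 4784. Of the 12 values of the 6 genes, 4, 4, 5 and 2 passed in the same order. With a threshold of 0.5 these were 0, 3, 4 and 0, and with a pseudocount of 0.1 they were 5, 6, 5 and 4. A change of pseudocount, minimum level or threshold cannot reverse the direction of a difference, so these alternatives say nothing of direction.

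The fold over clusters outside the distal nephron was 86.2 for *Slc12a1* in LH-AL-1 alone and 65.4 in LH-AL-2 alone, and 80.4 and 282.8 for *Enox1*. For *Kcnj1*, leaving out 1 mouse gave 11.32 to 16.97, the highest without control with AAI. Of the 3 genes most like each, 1 remained for *Umod* and 1 for *Thsd4* over single columns, and 1 for *Bsnd* and 1 for *Thsd4* with a pseudocount of 0.1. *Col5a2* was not among the 3 for *Enox1* in either setting. With 1 mouse per condition and no depth in the table, neither the spread between mice nor counting error could be separated from any difference.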

Other observations

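*Ppp1r1a* encodes inhibitor 1 of protein phosphatase 1 and was among the genes most like *Umod*. It was higher with AAI in both genotypes in LH-AL-1 and LH-AL-2. In LH-AL-1 its level was 1.51 in control, 6.20 in control with AAI, 1.81 in hKLF6 OE and 2.49 in hKLF6 OE with AAI. In LH-AL-2 it was 1.23, 6.31, 1.33 and 2.90 in the same order. The log2 difference of AAI against none in control was 1.71 in LH-AL-2, the largest rise there among 4404 genes, and *Umod* in the same comparison stayed within 0.2.

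*Sgcz*, named after its values were seen, encodes zeta-sarcoglycan and set the hKLF6 OE mouse without AAI apart. Its level in LH-AL-1 was 15.4 in that mouse and 0.150 to 0.441 in the other 3, and in LH-AL-2 it was 5.95 against 0.107 to 0.208.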
